A study of Mus musculus with 8 samples.

Results

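The interleukin-1 (IL-1) family, its receptors and Il24 were followed in sorted mouse skin cells. The set held 10 genes of the 24421 in the deposited table, found by their symbols: the ligands Il1a, Il1b, Il18 and Il33, the antagonist Il1rn, the receptor chains Il1r1, Il1rap and Il1rl1, the decoy receptor Il1r2, and the cytokine Il24. All 10 were in the table and passed the filter on low values, which asks for a mean of 1 or more in any group, but 4 of them passed through tdTomato+ groups alone, so counts over the members are a description. RNA came from the back skin of 4 C57BL/6J mice that carried both ROSA mTmG and Tyr:CreERT2. ROSA mTmG is a reporter that switches a cell from red tdTomato to green EGFP once Cre has acted, and Tyr:CreERT2 is a Cre that works in melanocytes after tamoxifen. Every mouse, controls included, had tamoxifen daily for 10 days from day 21 after birth and depilation on day 50. For 3 days 2 mice then received UVB at 150 mJ/cm2 and the other 2 a mock treatment, and skin was collected on day 54. Each mouse gave sorted melanocytes, which are EGFP+, and the remaining skin cells, which are tdTomato+. These make up 4 groups of 2 libraries, called here EGFP+ or tdTomato+, with or without UV. The tdTomato+ sort holds many cell types, so fewer cells of a type and less RNA per cell cannot be told apart in it. A melanocyte in which Cre did not act would also be sorted as tdTomato+. Mouse 1, which had the mock treatment, was the only mouse with reads of Xist, a gene expressed in females. The UV and no UV arms were thus not matched in this, and in UV comparisons it cannot be told apart from UV.

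IL-1α and IL-1β, the products of Il1a and Il1b, bind the receptor IL-1R1, which then recruits the accessory chain encoded by Il1rap and signals through MyD88, IRAK kinases and NF-kB. The antagonist encoded by Il1rn occupies IL-1R1 without signalling, and IL-1R2, the product of Il1r2, binds the ligands but lacks the signalling domain, so both dampen the pathway. IL-33 signals through ST2, encoded by Il1rl1, with the same accessory chain. IL-18 has its own receptor pair. Keratinocytes store IL-1α and IL-33 and release them on injury, and Il24 belongs to the IL-10 family of cytokines that act on epithelial cells.

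The start regions of Il1rap, the member higher in EGFP+ cells, and of 4 of the 7 members lower there are shown first. The windows come from RefSeq on GRCm38.p6 (the mm10 assembly), read 5′ to 3′ on the strand of the gene, and cover the 250 bases before the RefSeq start or less where an annotated exon of the gene begins earlier. Capitals mark matches, on either strand, to CACGTG and CATGTG (the core motifs bound by MITF and related factors), TGANTCA (AP-1), a 10-letter kB consensus and TATAAA.
Il1rn, chr2:24336610-24336852, plus strand: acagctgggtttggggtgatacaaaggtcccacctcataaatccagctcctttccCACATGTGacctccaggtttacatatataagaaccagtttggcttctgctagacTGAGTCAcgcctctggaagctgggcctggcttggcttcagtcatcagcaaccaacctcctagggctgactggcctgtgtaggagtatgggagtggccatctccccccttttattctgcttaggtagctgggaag
Il1r2, chr1:40085843-40085984, plus strand: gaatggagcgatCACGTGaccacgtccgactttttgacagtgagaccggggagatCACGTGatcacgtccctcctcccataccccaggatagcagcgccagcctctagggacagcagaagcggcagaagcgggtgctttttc
Il1a, chr2:129309973-129310222, minus strand: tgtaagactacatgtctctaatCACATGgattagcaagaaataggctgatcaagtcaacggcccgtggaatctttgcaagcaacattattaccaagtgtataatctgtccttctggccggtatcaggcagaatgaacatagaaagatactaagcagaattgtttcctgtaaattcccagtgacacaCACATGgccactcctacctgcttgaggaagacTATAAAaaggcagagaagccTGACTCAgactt
Il1b, chr2:129371140-129371389, minus strand: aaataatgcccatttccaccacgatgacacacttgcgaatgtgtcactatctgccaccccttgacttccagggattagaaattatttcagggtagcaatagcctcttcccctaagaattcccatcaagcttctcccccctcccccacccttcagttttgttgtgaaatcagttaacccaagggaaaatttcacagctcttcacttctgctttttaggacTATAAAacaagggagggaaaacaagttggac
Il1rap, chr16:26581455-26581703, plus strand: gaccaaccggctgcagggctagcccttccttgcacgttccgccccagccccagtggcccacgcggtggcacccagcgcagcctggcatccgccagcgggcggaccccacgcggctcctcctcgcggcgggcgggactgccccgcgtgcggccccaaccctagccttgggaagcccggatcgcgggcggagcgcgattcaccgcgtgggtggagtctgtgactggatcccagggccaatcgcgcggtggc
Entries were found for 9 of the 10 members, with 14 windows. Il1r2 had 2 CACGTG matches, whose first bases lie at -238 and -195 from the RefSeq start. That start lies inside the annotated gene, which begins at 40074079, and an annotated exon begins 108 bases before it. A CACGTG match is in 6.02% of 32851 mouse windows of 250 bases. Il1rn has 3 windows in the table. The one shown, the first along the chromosome, held CATGTG at -195 and -193, which overlap, and an AP-1 match at -141, and the other 2 held no match. Il1a had CATGTG at -228 and -64, TATAAA at -32 and an AP-1 match at -12. Il1b had TATAAA at -31. Of the windows not shown, those of Il1r1 held CATGTG at -177 in 1 and a kB match at -232 in the other. The windows of Il33 held TATAAA at -203 in 1 and at -29 in the other, and that of Il18 held it at -175. Over all windows, CATGTG was in 12.3%, the AP-1 motif in 6.75%, the kB consensus in 7.25% and TATAAA in 12.4%. The Il1rap window held none of the 5 motifs. A match describes the letters only.

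The members lie on 5 chromosomes, with positions from GENCODE M21 on GRCm38. Il1r2 (chromosome 1, 40074079 to 40125231), Il1r1 (40225080 to 40317257) and Il1rl1 (40429570 to 40465415) stand in a row of 6 receptor genes on the plus strand that ends at 40551705 and spans 478 kb. Il24 is farther along chromosome 1, at 130882074 to 130887454 on the minus strand, at the end of a row of 4 cytokine genes with Il20, Il19 and Il10. On chromosome 2, Il1rn is at 24336853 to 24351494 (plus strand), Il1a at 129299610 to 129309972 and Il1b at 129364570 to 129371139, the last pair on the minus strand within 71.5 kb. Il18 is on chromosome 9 (50554827 to 50581840), Il1rap on chromosome 16 (26581704 to 26730117) and Il33 on chromosome 19 (29925114 to 29960718), all on the plus strand. The library kit keeps no strand, and annotated exons of other genes on the opposite strand share 11.2% of the exon bases of Il1a, 4.86% of Il1rap and 1.31% of Il1b, so reads there cannot be told apart.

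The sort labels were checked against marker lists. Summed melanocyte markers (Dct, Tyr, Tyrp1, Pmel, Mlana and Sox10) stood at 515760 to 603174 normalized reads in EGFP+ libraries. In tdTomato+ libraries they stood at 5380 and 2321 without UV and at 22716 and 43831 with UV, which is 0.425% to 0.986% and 3.92% to 7.56% of the EGFP+ level of the same arm. Krt14, a basal keratinocyte keratin, had 203 to 341 normalized reads in EGFP+ and 100890 to 136012 in tdTomato+ libraries. Totals ran from 11186363 to 16711981 reads per library.

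Most of the family was carried by the tdTomato+ cells. Of the 10 members, 7 were lower in EGFP+ than in tdTomato+ cells over all mice, 1 was higher (Il1rap) and 2 did not pass the test (Il18 and Il1rl1). The test was limma on log2(value + 1) with Benjamini-Hochberg adjustment over 18070 genes, which called 28.9% of all genes, 9.66% as higher and 19.2% as lower. The median log2 fold change was -6.70 over the members and -0.33 over all genes tested. In the arm without UV 8 members passed, against 19.2% of all genes, with 7 lower (12.5% of all genes) and 1 higher (6.67%). In the UV arm 8 passed, against 17.9%, again with 7 lower (12.9%) and 1 higher (5.03%). All 8 calls over all mice remained under quantile normalization, which moved the median of all genes by 0.45 (log2). Leaving out 1 library kept the 8 calls over all mice in each of 8 fits, while within the arms 6 to 8 members were called without UV and 4 to 8 with UV, the lowest without the first UV tdTomato+ library. Without mouse 1, 7 were called over the remaining mice, 5 in the arm without UV and 4 in the UV arm.

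**Figure D1:**
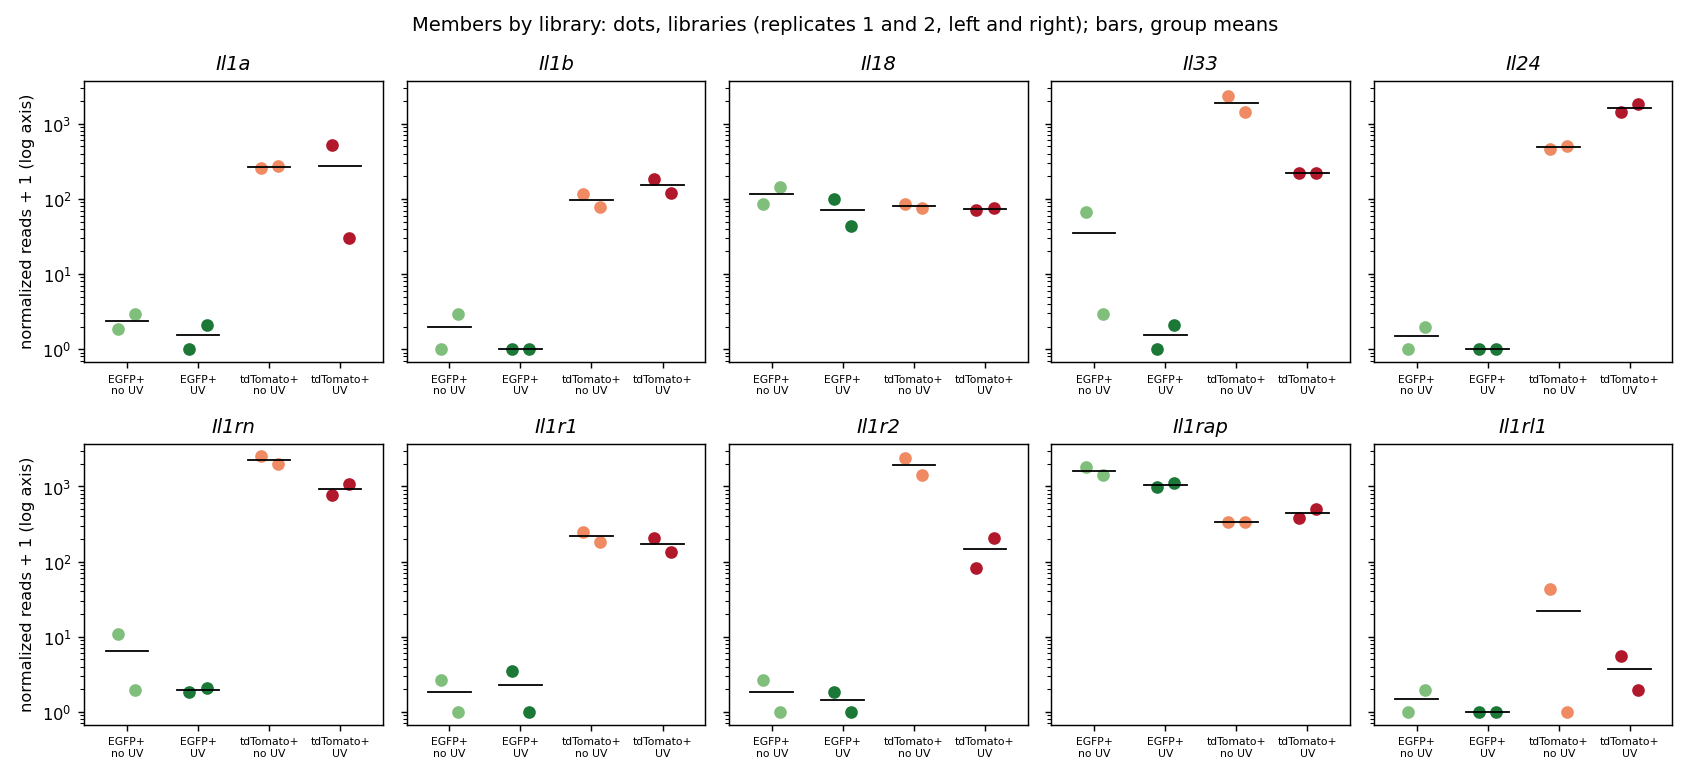
Normalized reads plus 1 of each member (y, log axis) in the 8 libraries, with 1 dot per library and a line at the mean of each group. Il1rap sits higher in EGFP+ libraries (983 to 1797) than in tdTomato+ libraries (333 to 507), Il18 overlaps between them, and most other members are at or near 0 reads in EGFP+ cells.

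The antagonist gene Il1rn had 9.98 and 0.95 normalized reads in EGFP+ cells without UV and 0.84 and 1.08 with UV. In tdTomato+ cells it had 2507 and 1990 without UV and 768 and 1074 with UV. Every tdTomato+ library was far above every EGFP+ library, and the log2 fold change was -8.89 ± 0.61 (SE, limma adjusted p = 2.37e-05, n = 4 against 4). It was -9.51 without the first EGFP+ library of the no UV arm and -8.27 without the second.

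Il1r2, the decoy, stood at 1.66 and 0 in EGFP+ cells without UV and at 0.84 and 0 with UV. Its tdTomato+ values were 2394 and 1426 without UV and 81.6 and 207 with UV. With 3 reads in all EGFP+ libraries against 3759 in tdTomato+ libraries, the ratio of tdTomato+ to EGFP+ was 1408 (95% exact interval 481 to 6830, which covers counting error only). The fitted log2 fold change was -8.37 ± 0.71 (adjusted p = 7.46e-05), a value that depends on the pseudocount when one side is near 0.

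Il1r1, the signalling receptor, had 1.66 and 0 normalized reads in EGFP+ cells without UV and 2.52 and 0 with UV. In tdTomato+ cells the values were 250 and 183 without UV and 204 and 133 with UV, with overlapping UV arms. Its log2 fold change was -6.75 ± 0.78 (limma adjusted p = 3.50e-04). Only 5 reads were counted over the 4 EGFP+ libraries, so a level of this receptor in melanocytes is hardly measurable at this depth.

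The accessory chain went the other way. Il1rap had 1797 and 1406 normalized reads in EGFP+ cells without UV, 983 and 1125 with UV, 338 and 333 in tdTomato+ cells without UV, and 376 and 507 with UV. All 4 EGFP+ libraries were above all 4 tdTomato+ libraries. Its difference on the log2 scale was 1.75 ± 0.19 over the 4 mice (limma adjusted p = 2.36e-04), 2.24 ± 0.26 in the arm without UV (adjusted p = 8.61e-04) and 1.27 ± 0.26 in the UV arm (adjusted p = 0.0130). Leaving out 1 library at a time ended the call with UV in 2 of 8 fits, with adjusted p up to 0.0962.

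**Figure D2:**
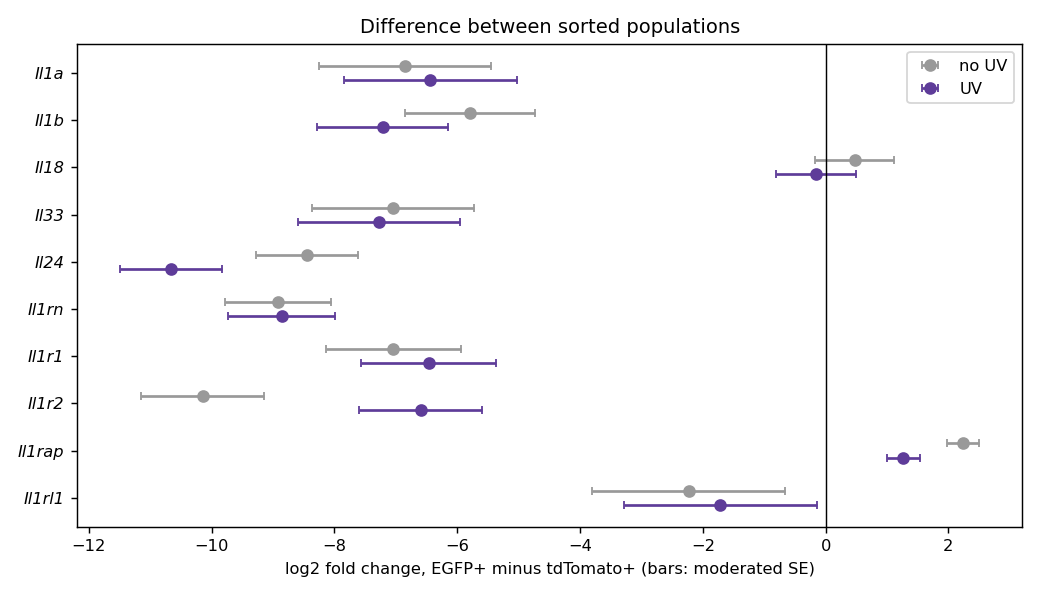
Log2 fold change of EGFP+ minus tdTomato+ cells for each member (x), without UV in grey and with UV in purple, with moderated standard errors as bars. Il1rap is on the positive side in both arms (2.24 and 1.27), Il18 lies on both sides of 0, and the other members are on the negative side.

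Among the ligands, Il1a had 0.83 and 1.90 normalized reads in EGFP+ cells without UV and 0 and 1.08 with UV. Its tdTomato+ values were 254 and 274 without UV and 522 and 28.8 with UV. The second UV library was thus the lowest tdTomato+ library by a wide margin, yet it was still above every EGFP+ library. A log2 fold change of -6.64 ± 0.99 (limma adjusted p = 0.00141) was fitted, and without mouse 1 it was -6.50 with adjusted p = 0.101, the one call of the 8 that was then lost. It was -5.61 without the first UV tdTomato+ library and -7.67 without the second. Mouse 1 was left out in an added fit because of its Xist reads, given in the opening.

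Il1b had 0 and 1.90 normalized reads in EGFP+ cells without UV and 0 reads in both with UV. In tdTomato+ cells it had 113 and 77.1 without UV and 182 and 120 with UV. The tdTomato+ level was 280 times the EGFP+ level (exact interval 77.0 to 2317, from 2 reads against 498), and with UV it was at least 107-fold higher, taking 3 reads over the group as the floor. The fitted log2 fold change over all mice was -6.51 ± 0.75 (limma adjusted p = 3.64e-04).

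Il33, a nuclear alarmin, had 2342 and 1436 normalized reads in tdTomato+ cells without UV and 222 and 223 with UV. In EGFP+ cells it had 65.7 and 1.90 without UV and 0 and 1.08 with UV. The first EGFP+ library, from mouse 1, stood apart: it held 79 reads, which is 2.81% of the tdTomato+ level in the same mouse. In that mouse the EGFP+ share was 0.398% for Il1rn and 0.0695% for Il1r2. Over 248 genes fitted as at least 64-fold lower in EGFP+ cells and with at least 500 normalized reads in both tdTomato+ libraries without UV, the median share in that mouse was 0.354%, and 13 of them, Il33 included, were at the Il33 share or above. These genes were chosen by their low EGFP+ values, that library included. The low median follows in part from this choice, and the place of Il33 among them is a description. The log2 fold change of Il33 was -7.16 ± 0.93 (limma adjusted p = 6.91e-04). It was -8.29 without the first EGFP+ library of the no UV arm, -6.03 without the second and -8.11 without mouse 1.

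For Il18 the populations overlapped. It had 84.0 and 144 normalized reads in EGFP+ cells without UV and 98.2 and 42.0 with UV, against 84.1 and 74.2 and then 69.6 and 74.2 in tdTomato+ cells. The EGFP+ range enclosed all 4 tdTomato+ values. The log2 fold change was 0.16 ± 0.46 (limma adjusted p = 0.823, 95% interval -0.90 to 1.21), so a difference within that interval, in either direction, was not excluded.

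Il24 showed a very steep contrast. A single read was found over the 4 EGFP+ libraries, in the second library without UV (0.95 normalized reads). The tdTomato+ values were 467 and 510 without UV and 1437 and 1834 with UV. The ratio from 4380 reads against 1 was 4921 (exact interval 883 to 194429), and with UV the tdTomato+ level was at least 1155-fold higher. The fitted log2 fold change was -9.56 ± 0.59 over all mice (limma adjusted p = 1.32e-05).

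Il1rl1 rested on 1 library. It had 42.1 and 0 normalized reads in tdTomato+ cells without UV and 4.58 and 0.93 with UV, and 0 except for 1 read in EGFP+ cells. The 43 reads of mouse 1 made up most of the 49 reads over the tdTomato+ libraries. The log2 fold change of -1.97 ± 1.11 did not pass the test (limma adjusted p = 0.228, 95% interval -4.52 to 0.57). Without the second tdTomato+ library of the no UV arm, which had 0 reads, it was -3.33 and passed (adjusted p = 0.0163), and without the first it was -0.62.

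The authors' deposited table gives its own DESeq2 comparison of the populations over the 8 libraries. There Il1rn stands at a log2 fold change of -8.63, Il24 at -10.98, Il1r2 at -9.73, Il33 at -5.03, Il1rap at 1.76 and Il18 at 0.28. All members had the same sign there as in the limma fit, including Il1rl1, which has no p-value in the authors' deposited table.

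Within the tdTomato+ cells the members were compared per kb of exon (normalized reads divided by the summed length of all annotated exons), since longer transcripts give more reads. Without UV the order of mean levels was Il1r2, Il33, Il1rn, Il24, Il1a, Il18, Il1b, Il1r1, Il1rap and Il1rl1. Il1r2 stood at 1255 and 747 per kb and Il33 at 811 and 498, so this neighbouring pair overlapped. Il1rn (453 and 359) and Il24 (337 and 368) also overlapped. Il1a followed at 129 and 139, above Il18 (81.6 and 72.0) and Il1b (59.5 and 40.4). Il1r1 (39.4 and 28.7) enclosed Il1rap (29.8 and 29.3). With UV, Il24 was first at 1037 and 1323 per kb. The next members, Il1rn (139 and 194), Il1a (265 and 14.6), Il1b (95.6 and 62.7), Il33 (76.8 and 77.1), Il1r2 (42.7 and 108) and Il18 (67.6 and 72.0), overlapped in part with one another. In EGFP+ cells the 2 members above 12 reads in each library were Il1rap (158 and 124 per kb without UV, 86.6 and 99.05 with UV) and Il18 (81.5 and 139, then 95.2 and 40.8).

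The ratios of Il1rn to Il1b and of Il1r2 to Il1r1 differed between the arms in the libraries at hand. Il1rn stood at 7.61 and 8.89 times Il1b per kb in tdTomato+ cells without UV and at 1.45 and 3.09 times with UV. The decoy Il1r2 stood at 31.9 and 26.0 times the receptor Il1r1 per kb without UV and at 1.33 and 5.20 times with UV. In both ratios the UV libraries were below the libraries without UV. The ratio of Il1rn to Il1a did not separate the arms, at 3.52 and 2.59 without UV and 0.524 and 13.3 with UV. These ratios are descriptions of 2 libraries an arm and carry no test. Single genes whose arms did not overlap in tdTomato+ cells made up 46.1% of all genes.

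**Figure D3:**
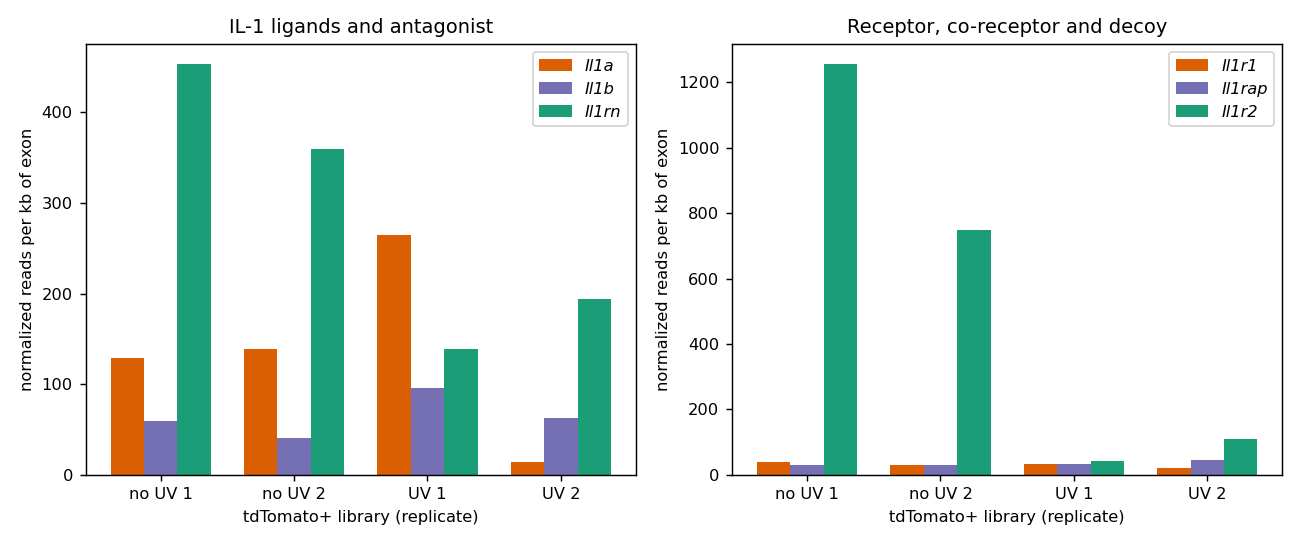
Normalized reads per kb of exon (y, linear from 0) in the 4 tdTomato+ libraries for Il1a, Il1b and Il1rn (left) and Il1r1, Il1rap and Il1r2 (right). Il1r2 stands at 1255 and 747 per kb without UV and at 42.7 and 108 with UV, while Il1r1 stays between 20.8 and 39.4.

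For UV against no UV in tdTomato+ cells, limma called 0 of the 10 members at adjusted p of 0.05, against 0.559% of all genes. At an unadjusted p under 0.05 there were 2 (Il1r2 and Il33), against 13.4% of all genes. edgeR and DESeq2 on the recovered whole reads each called 2 members, Il1r2 and Il24, against 1.33% and 3.48% of all genes. The 2 arms did not overlap for 7 members, against 46.1% of all genes. The median log2 fold change of the members was -0.69, and that of all genes was -0.09.

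Il1r2 stood at 81.6 and 207 normalized reads with UV against 2394 and 1426 without, 13.2-fold lower by means. Its log2 fold change was -3.82 ± 1.00 (limma adjusted p = 0.157, edgeR adjusted p = 0.00133, DESeq2 adjusted p = 1.16e-08). In limma fits that left out 1 library the adjusted p ran from 0.0894 to 0.510.

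Il24 stood at 1437 and 1834 with UV against 467 and 510 without, 3.35-fold higher by means. The log2 fold change was 1.73 ± 0.83 (limma adjusted p = 0.424, edgeR adjusted p = 0.0410, DESeq2 adjusted p = 3.61e-04). The other tools thus put Il1r2 and Il24 past the threshold in opposite directions, and limma put neither there.

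Il33 stood at 222 and 223 with UV against 2342 and 1436 without, 8.50-fold lower by means. With a log2 fold change of -3.04 ± 1.32 it did not pass limma (adjusted p = 0.369), edgeR (0.0600) or DESeq2 (0.269). Il1rn stood at 768 and 1074 against 2507 and 1990, with a log2 fold change of -1.30 ± 0.87 (limma adjusted p = 0.566, edgeR adjusted p = 0.174, DESeq2 adjusted p = 0.0595). The arms of these 2 genes did not overlap.

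For Il1a the arms overlapped, since 522 and 28.8 lay on both sides of 254 and 274, and the log2 fold change was -1.09 ± 1.40. For Il1b it was 0.65 ± 1.06, for Il1rap 0.38 ± 0.26, for Il1r1 -0.38 ± 1.10, and for Il18 -0.14 ± 0.65. Il1rl1, with 43 reads in 1 library, had an interval from -4.60 to 2.60. None of these 6 passed any of the 3 tools, and DESeq2 gave no adjusted p for Il1rl1. Their 95% intervals all included 0 and were wide: that of Il1b ran from -1.78 to 3.09.

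**Figure D4:**
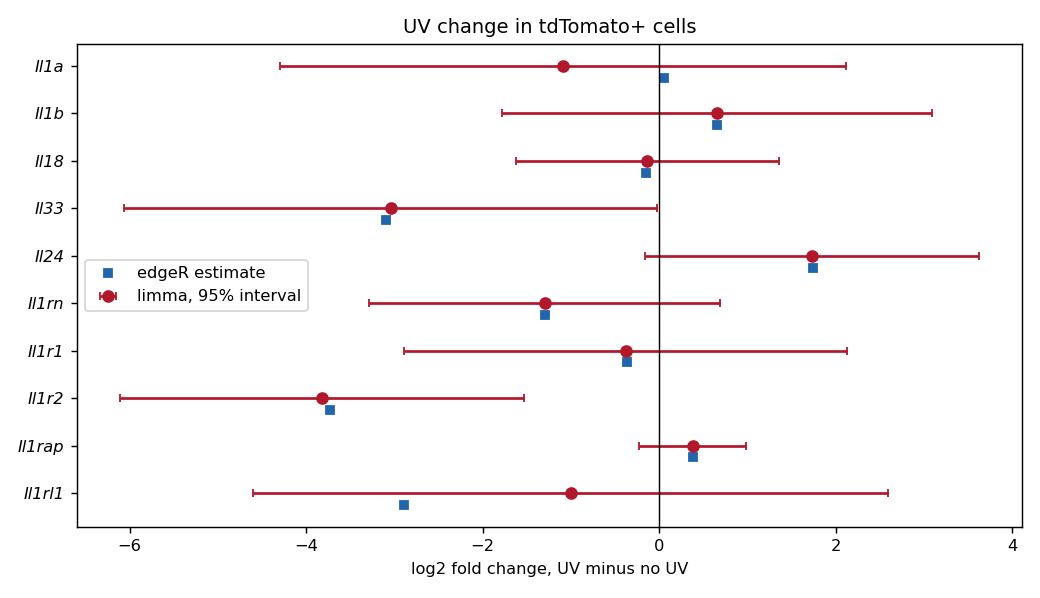
Log2 fold change of UV minus no UV in tdTomato+ cells for each member (x), with limma estimates and their unadjusted 95% intervals in red and edgeR estimates as blue squares. The intervals of Il1r2 (-6.11 to -1.53) and Il33 (-6.06 to -0.02) exclude 0, and that of Il24 runs from -0.16 to 3.63.

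Some markers of several cell types also differed between the tdTomato+ arms. The Langerhans cell gene Cd207 had 1237 and 271 normalized reads without UV and 0 with UV, a log2 fold change of -9.18 (limma adjusted p = 0.0211). The suprabasal keratins Krt1 and Krt10 were lower with UV (-7.98 and -4.95) and the wound keratin Krt6a was higher (3.79), all past the limma threshold. These were 2 of 5 suprabasal and 1 of 5 stress keratinocyte markers tested, against 0.559% of all genes. The arms did not overlap for 3 of the suprabasal and 2 of the stress markers, against 46.1% of all genes. The suprabasal marker Sbsn stood at 3355 and 4276 without UV and at 5096 and 2503 with UV. Krt17, a stress marker, stood at 51520 and 48707 without UV and at 58079 and 44976 with UV. Of 6 melanocyte markers, 4 were called higher with UV in tdTomato+ cells, and the summed level is given above. Summed T and NK cell markers stood at 844 and 1185 without UV and at 134 and 1.86 with UV, with 0 of them called. Summed macrophage and dendritic cell markers stood at 13255 and 2601 against 6038 and 1794, but genes of this list went both ways. Cd74 stood at 6548 and 1323 against 763 and 527, and Cd68 at 197 and 78.5 against 651 and 226. The median log2 fold change of the list was 0.22. Summed fibroblast markers stood at 17429 and 14716 against 8276 and 11772, with 0 of them called, and these genes went both ways too. Col1a1 stood at 1418 and 1474 against 87.0 and 104, and Dcn at 7967 and 8617 against 7252 and 9350. Pdgfra stood at 28.4 and 37.1 against 66.0 and 242. Summed endothelial markers stood at 196 and 44.2 against 727 and 81.6, and neutrophil markers at 5486 and 945 against 1762 and 1020. Of the neutrophil markers, Retnlg had 0 reads throughout, and Camp had reads with UV only (26.6 and 18.5). In fits that left out 1 library, limma called from 0 to 1772 genes in this comparison (101 with all libraries), and 0 without either UV tdTomato+ library, so these marker calls need both. Their part in the values of Il1r2, Il33, Il1rn and Il24 was not tested.

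In EGFP+ cells limma called 0 of the 10 members for UV against no UV (1 at an unadjusted p under 0.05, Il33), where 0.0166% of all genes were called (10.4% at that unadjusted p). edgeR and DESeq2 also called 0 members, against 0.664% and 2.0% of all genes. Fold changes are given here only for members with a mean of at least 10 normalized reads in an arm. Il1rap stood at 983 and 1125 with UV against 1797 and 1406 without, with no overlap and a log2 fold change of -0.60 ± 0.26 (limma adjusted p = 0.480). Il18 had a log2 fold change of -0.76 ± 0.65 (adjusted p = 0.714) and overlapping arms. The Il33 value of -3.27 ± 1.32 (adjusted p = 0.452) rested on the EGFP+ library of mouse 1, without which it was -1.01. For Il1rn, 13 reads without UV and 2 with UV gave a ratio of 6.11 (exact interval 1.38 to 55.8), and 12 of the 13 reads were in that same library.

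The difference between the UV changes of the 2 populations was tested in the same fit, and limma, edgeR and DESeq2 each called 0 members, against 0.00553%, 0.415% and 1.61% of all genes. At an unadjusted p under 0.05 there were 2, Il1rap and Il1r2, against 10.0% of all genes. For Il1rap the UV change in EGFP+ minus that in tdTomato+ cells was -0.97 ± 0.37 (limma adjusted p = 0.453). Summed melanocyte markers were also higher in the UV tdTomato+ libraries, in which Il1rap stood at 376 and 507 against 338 and 333, and their part was not tested. Il1r2 had at most 2 reads in any EGFP+ library, so that its difference is carried by the tdTomato+ cells.

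Genes around the members were taken from 7 lists. As with the members, some passed the filter through tdTomato+ groups alone, Ptgs2 and Cxcl3 of the NF-kB and IL-1 induced targets among them. Such genes could hardly come out higher in EGFP+ cells, so counts and medians over the lists are a description. In the comparison of populations over all mice, 15 of 18 genes induced by NF-kB or IL-1 were lower in EGFP+ cells (19.2% of all genes) and 0 were higher (9.66%), with a list median of -5.13 against -0.33 for all genes. Tnfaip3, which encodes the NF-kB feedback inhibitor A20, was at -7.20 ± 0.42. The chemokine genes Ccl2 and Cxcl1 were at -9.25 ± 0.70 and -4.89 ± 0.23, and Ptgs2, which encodes the prostaglandin enzyme COX-2, at -9.08 ± 0.61 (all limma log2 fold changes, with adjusted p of 3.97e-05 or less). The 15 remained called under both other scalings, and 10 did without mouse 1.

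The shared signalling genes had medians nearer to 0. Of 15 MyD88 and IRAK genes, 6 were lower in EGFP+ cells and 1 was higher (Traf6, a ubiquitin ligase, 0.97 ± 0.23), with a median of -0.51. These 7 of 15 stand beside 28.9% of all genes (19.2% lower, 9.66% higher). The kinase genes Map3k8 and Irak1 were at -1.81 ± 0.20 and -0.98 ± 0.16, and Irak3, which encodes an inhibitory IRAK, was at -2.69 ± 0.66. After rescaling without the 20 most abundant genes, 4 of these 7 calls remained, and without mouse 1 only 2 did, with Irak1 (adjusted p = 0.0701) and Irak3 (0.251) among those lost. Of 11 core NF-kB genes, 4 were lower, among them Nfkbia (-2.26 ± 0.14), an inhibitor of NF-kB that is also its target, and Rel (-2.13 ± 0.25), a subunit. The kinase subunit gene Ikbkb was higher (1.56 ± 0.20), and the list median was 0.04. These 5 calls of 11 stand beside 28.9% of all genes, and 3 of them remained under either other scaling. Neither they nor the 7 of 15 above are read as a result about a list.

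Of 15 inflammasome and cytokine processing genes, 4 were lower in EGFP+ cells and 1 was higher, with a median of -1.30. That is 5 of 15, near the 28.9% of all genes called, and is not read as a result about the list. Pycard, which encodes the adaptor ASC, was at -4.02 ± 0.17, from 216 to 529 normalized reads in EGFP+ against 5068 to 6225 in tdTomato+ libraries. Gsdma, a gasdermin gene of skin epithelium, was at -7.20 ± 0.89, Nlrp10 at -5.49 ± 1.06 and the calpain gene Capn1 at -1.49 ± 0.29. The one call in the other direction was Casp4, a caspase gene, at 3.16 ± 0.64. It is named although it lies outside the naming rule, after its value was seen.

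Among the other ligands of the family, 3 of 5 tested were lower in EGFP+ cells (19.2% of all genes): Il1f5, older symbol of the IL-36 receptor antagonist gene (-4.58 ± 0.77), and the IL-36 ligand genes Il1f8 (-2.35 ± 0.69) and Il1f9 (-1.35 ± 0.43). None was higher. Under quantile normalization the first of these was the call that remained, 1 of 5. Il1f5 in tdTomato+ cells stood at 324 and 218 normalized reads without UV and at 11.0 and 4.64 with UV, a log2 fold change of -5.02 ± 1.09 (limma adjusted p = 0.101, edgeR adjusted p = 0.0418). Of 6 other receptor and decoy genes tested, Il1rl2, the IL-36 receptor (-7.19 ± 0.73), and Il18r1, a chain of the IL-18 receptor (-6.00 ± 0.74), were lower and 0 were higher, beside the same shares of all genes. Il1f8, Il1rl2 and Il18r1 passed the filter through tdTomato+ groups alone, so the counts of both lists are a description.

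Of 13 genes tested in the Il24 list, 7 were lower in EGFP+ cells (19.2% of all genes) and 1 was higher (9.66%). Of those lower, Il10, Il19, Il20, Il20ra, Il22ra1 and Il22ra2 passed the filter through tdTomato+ groups alone, so these counts are a description. The list holds relatives and receptor genes of Il24 and also downstream signalling genes, and none of the latter was called. Without mouse 1, 4 of these 8 calls remained, with Il10, Il20, Il20rb and Il22ra2 lost. The cytokine Il19 was at -6.52 ± 0.90, with 57.7 and 144 normalized reads in tdTomato+ cells without UV and 61.4 and 385 with UV. Of the receptor chains, Il20ra was at -4.96 ± 0.77 and Il22ra1 at -4.22 ± 0.69, while Il10rb, the chain shared by IL-10 and IL-22 receptors, was higher at 1.76 ± 0.20. Il20rb, a chain outside the naming rule, had 1.08 to 78.0 normalized reads in EGFP+ and 796 to 1027 in tdTomato+ libraries. Il20ra stood at 136 and 191 in tdTomato+ cells without UV and at 14.7 and 11.1 with UV, a log2 fold change of -3.56 ± 1.08 that did not pass (limma adjusted p = 0.208, edgeR adjusted p = 0.25). For UV against no UV in tdTomato+ cells limma called 0 genes in each of the 7 lists, with 16 of 83 at an unadjusted p under 0.05 over the lists (13.4% of all genes). edgeR called 2 of the 83 and DESeq2 8, against 1.33% and 3.48% of all genes.

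**Figure D5:**
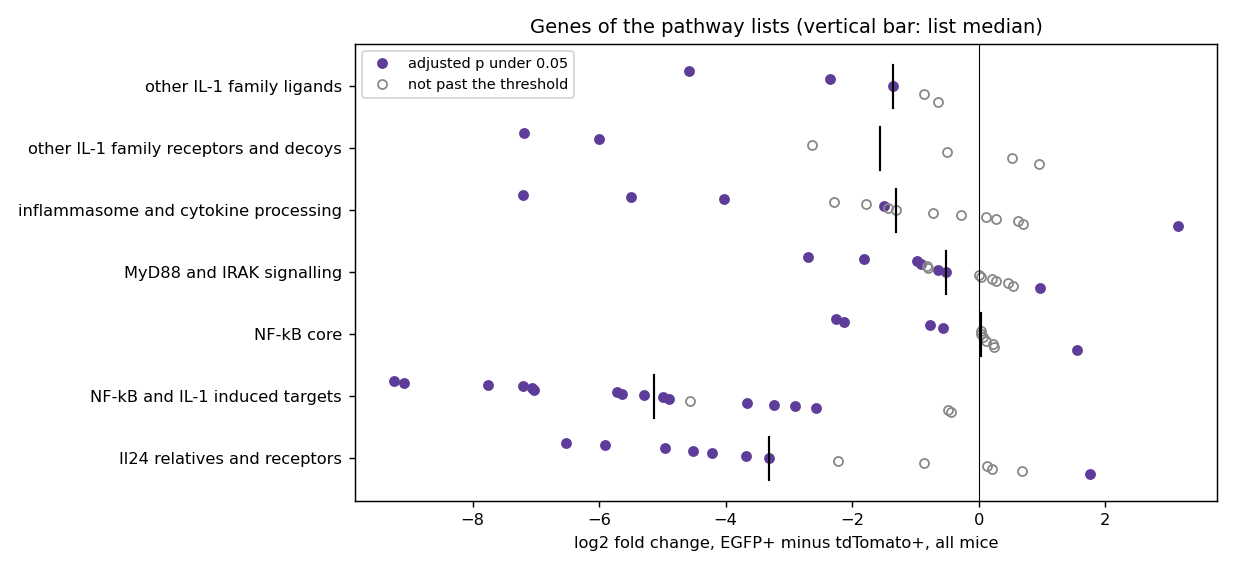
Log2 fold change of EGFP+ minus tdTomato+ cells over all mice (x) for each tested gene of the 7 lists, filled where the limma adjusted p was under 0.05, with a vertical bar at each list's median. The NF-kB and IL-1 induced targets have a median of -5.13, and the core NF-kB genes a median of 0.04.

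The 6 receptor genes in a row on chromosome 1 are set side by side here without a test. Going along the chromosome, the tdTomato+ levels without UV and then with UV were 2394 and 1426, then 81.6 and 207 normalized reads for Il1r2. The next gene, Il1r1, had 250 and 183, then 204 and 133. Il1rl2 had 222 and 106, then 314 and 216, and Il18r1 had 46.0 and 35.7, then 92.6 and 190. Il18rap had at most 2.75 in any library. In EGFP+ cells none of the 6 genes had more than 2.52 normalized reads in a library.

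The genes whose log2 values were most like those of a member over the 8 libraries were listed among 15234 genes as a description. The libraries fall into 2 sorted populations and share depth and sort, so high values are common: for Il1rn, 752 genes had r above 0.95. For Il1rap the 3 most alike were Tcp11l2 (r = 0.992), Ankrd28 (0.988) and Plekha3 (0.982). For Il33 they were Rdh10 (0.990), Abi3bp (0.990) and Atp6v1b1 (0.988). For Il24 they were Tnk1 (0.998), Lad1 (0.997) and Ssx2ip (0.997), and for Il1r2 AU018091 (0.994), Srcin1 (0.994) and Lgals12 (0.993). For Il18, 3 genes had r above 0.95, the highest being 4933427D14Rik (0.964).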

How the data were processed

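RNA of 8 sorted samples was measured by poly(A) selected, unstranded RNA-seq, per the labels' protocols. Per the submitters' processing notes, the tools were TopHat2 2.0.12, Cufflinks 2.2.1, FastQC and DESeq2 1.14.1, with mm10. For the tool that counted reads and its annotation, the sources used here give no name. The deposited values are a signal, normalized reads per gene. Each is a whole number of reads over 1 size factor a library (0.701 to 1.20), and 195368 of 195368 values (100%) were within 0.01 of whole. The authors' deposited log2 fold changes and p-values, and a score (the test statistic), compare the populations over the 8 libraries.

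limma 3.58.1 (R 4.3.3) was fitted to log2(value + 1) over all 8 libraries, with a mean per group and trended moderation (4 residual degrees of freedom). The 18070 genes whose mean reached 1 in any group were tested, adjusted by Benjamini-Hochberg, threshold 0.05. edgeR 4.0.16 and DESeq2 1.42.0 on the recovered reads, other scalings, filters and pseudocounts, a replicate block and leaving out libraries were alternatives. Per group there are 2 mice, and p-values rest on their spread, pooled over groups. Deviations of a mouse in EGFP+ and tdTomato+ cells correlated at 0.0873 and 0.0562. Ratios from 1 to 3 reads carry exact 95% intervals. Members and lists were chosen with earlier results of these data known. From each list, up to 4 genes with the smallest p between populations and up to 3 in the UV comparison of tdTomato+ cells could be named. Fits were also run on simulated data with the same spread for all genes and no differences between mice. That does not show how they behave for members whose replicates differ widely.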

Additional observations from a re-analysis of the deposited data

How the results depend on the processing

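The fit was repeated under 9 other settings, with 1 of the 8 libraries left out in turn and, added after seeing the data, without mouse 1. A library left alone in its group was assumed to vary like the other groups. Of 794 values compared, 734 kept direction and side of the threshold, 35 fell short of it, 6 passed it and 19 reversed, and unless fewer samples or genes account for it the cause was not tested. Fold changes of members with a mean under 10 in the groups compared were not recomputed. The replicate block (mouse between populations, replicate number between UV arms, where numbers belong to different mice) called 8 members over the 4 mice and 8 in each arm, and 0 in the UV comparisons, and it changed no member's call. By number across the UV arms, deviations correlated at 0.0549 in EGFP+ and 0.0759 in tdTomato+ cells.

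Members called with UV numbered 3 with only the libraries compared, 4 without mouse 1 and 4 to 8 with 1 library left out. Without UV they numbered 5 without mouse 1. For UV in tdTomato+ cells edgeR called 2 and DESeq2 called 2. For all genes, the populations with UV differed at 1074 genes with only the libraries compared, 1119 without mouse 1 and 993 to 4952 with 1 library left out (3240 with all). Leaving out 1 library gave 3463 to 6594 over all mice (5217 with all) and 1398 to 4494 without UV (3468 with all). For UV in EGFP+ cells (3 genes) the count was 16 with quantile normalization, 1 with a pseudocount of 0.1, 0 with only the libraries compared, 120 by edgeR, 361 by DESeq2, 818 without mouse 1 and 0 to 1604 with 1 library left out. For UV in tdTomato+ cells (101 genes) it was 218, 29, 0, 240, 629, 2006 and 0 to 1772 in the same order. For the difference of UV changes (1 gene) it was 14 with quantile normalization, 2 after rescaling, 0 with a pseudocount of 0.1, 0 with no filter, 75 by edgeR, 291 by DESeq2, 2064 without mouse 1 and 0 to 1297 with 1 library left out.

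Reversed log2 fold changes were of values that had not passed. Il18 between populations with UV (-0.16) was 0.91 with quantile normalization, 0.057 after rescaling, 0.0069 by edgeR and -0.76 to 0.44 with 1 library left out, and over all mice it ran from -0.14 to 0.46. Il1a for UV in tdTomato+ cells (-1.09) was 0.056 by edgeR, 0.061 by DESeq2 and -3.16 to 0.98 with 1 library left out. Il1rl1 was 0.96 without UV between populations without mouse 1 (-4.95 to 0.48 with 1 library left out), and for UV in tdTomato+ cells 0.10 with a pseudocount of 0.1, 1.71 without mouse 1 and -3.71 to 1.71 with 1 library left out. The Il33 difference of UV changes (-0.23) was 1.37 with quantile normalization, 1.68 without mouse 1 and -2.49 to 2.03 with 1 library left out.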
